A study of Mus musculus with 8 samples.

Results

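The 53 genes described here carry out DNA replication and mitosis or drive the passage between them. They were chosen by their place in the cell cycle, 19 in DNA replication, 26 in mitosis and 8 among the cyclins, Cdk1 and the transcription factors of the cycle. Each was read from a probe set that the platform's annotation assigns to that gene alone, and where several qualified the one with the highest mean over the 8 arrays was used. All 53 were measured, among 19936 genes in all. The arrays were Affymetrix expression arrays hybridised with total RNA of whole kidneys, 1 mouse to an array.

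By the labels, the 4 arrays labelled mutant came from mice of the genotype Pax8-rtTA;LC-1;Vhl-floxed. The 4 arrays labelled control came, by the labels, from littermates of these mice. Vhl and its downstream genes ran against this assignment, with values given below. Pax8-rtTA makes the doxycycline-dependent activator in tubular epithelium, LC-1 answers to it with Cre recombinase, and Vhl encodes the recognition subunit of the ubiquitin ligase that marks hypoxia-inducible factor (HIF) for destruction. The labels call the littermates control and do not say which of these alleles they carried. In both groups doxycycline was given from 3 weeks of age, at 0.2 mg/ml in drinking water with 5% sucrose. It lasted 2 weeks, plain water followed for 1 week, and kidneys were taken at 6 weeks of age. All mice were female and of a mixed C57BL/6 - SV127 background. Recombination is limited to tubular epithelium while the RNA came from the whole organ, so vessels, stroma and blood cells contributed to every value. In such bulk RNA fewer cycling cells and less of a transcript in each cycling cell cannot be told apart.

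Cells copy their DNA in S phase and separate the copies in mitosis. Mcm2 to Mcm7 form the ring-shaped helicase that is loaded at origins in G1, Cdc45 and the GINS complex switch it on, and Pcna clamps the polymerases to the template. E2F factors activate many of these genes at the entry into S phase. Later in the cycle B-Myb (Mybl2) and then Foxm1, together with the MuvB complex, activate the mitotic genes, often through a promoter element called the cell-cycle homology region and a nearby CCAAT box bound by NF-Y. In the kidney of a young mouse most tubular cells are out of the cycle, and a minority still divide as the organ grows.

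The members' promoters were searched for these elements. RefSeq promoter windows of the GRCm38.p6 assembly, each from 250 bases before to 50 bases after the annotated gene start, were matched by symbol to 45 of the 53 members, all but Ccna2, Ccne2, Foxm1, Mcm4, Gins1, Aurkb, Kif20a and Tpx2. The E2F site spellings were searched, TTTCCCGC, TTTGGCGC, TTTCGCGC and TTTGCCGC, with TTTGAA for the cell-cycle homology region and CCAAT for the NF-Y box, on both strands and with overlaps between matches allowed. An E2F spelling lay in 7 of 17 replication members with a window (41.2%) and in 2 of 23 mitosis members (8.7%), compared with 2.6% of the 27025 genes that have a window. The cell-cycle homology region had the opposite distribution, with 2 of 17 replication members (11.8%) and 18 of 23 mitosis members (78.3%), compared with 20.2% of all genes with a window. The CCAAT box was common in both classes, in 76.5% of the replication and 82.6% of the mitosis members, against 41.1% of all. Where only the 150 bases nearest the gene start were read, the E2F share of the replication members was 17.6% (3 of 17). That of the mitosis members was 8.7% (2 of 23) and that of all genes 1.45%, so the E2F contrast between the classes was smaller. The cell-cycle homology region kept 73.9% of the mitosis members against 9.23% of all. A match is a run of letters and not a measured binding site.

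The windows of 5 genes whose transcripts were lower in the arrays labelled mutant are printed as examples of the elements, with Mcm6 and Mcm3 for replication, Mki67 and Prc1 for mitosis and Cdk1 as a gene that holds elements of both kinds. Mcm6 lies at chr1:128359656-128359955 on the minus strand, Mcm3 at chr1:20820263-20820562 on the minus strand, Mki67 at chr7:135716330-135716629 on the minus strand, Prc1 at chr7:80294201-80294500 on the plus strand and Cdk1 at chr10:69352863-69353162 on the minus strand, all in GRCm38.p6. Each is written 5′ to 3′ along the strand of its gene, and capitals mark the E2F spellings, the cell-cycle homology region and the CCAAT box on either strand. For Prc1 RefSeq lists 2 windows, of which the first is given.
Mcm6: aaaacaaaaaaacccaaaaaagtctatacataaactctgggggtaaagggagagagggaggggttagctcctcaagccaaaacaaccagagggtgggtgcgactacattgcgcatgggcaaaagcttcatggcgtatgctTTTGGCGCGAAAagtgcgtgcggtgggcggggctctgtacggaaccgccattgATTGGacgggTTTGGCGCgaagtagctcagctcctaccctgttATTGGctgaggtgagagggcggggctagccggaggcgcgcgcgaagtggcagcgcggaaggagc
Mcm3: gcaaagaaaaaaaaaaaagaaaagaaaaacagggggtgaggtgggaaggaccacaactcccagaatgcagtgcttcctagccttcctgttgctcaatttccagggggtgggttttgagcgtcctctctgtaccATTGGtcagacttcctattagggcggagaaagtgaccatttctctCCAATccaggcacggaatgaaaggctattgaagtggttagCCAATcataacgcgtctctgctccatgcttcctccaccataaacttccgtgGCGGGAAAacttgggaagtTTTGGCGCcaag
Mki67: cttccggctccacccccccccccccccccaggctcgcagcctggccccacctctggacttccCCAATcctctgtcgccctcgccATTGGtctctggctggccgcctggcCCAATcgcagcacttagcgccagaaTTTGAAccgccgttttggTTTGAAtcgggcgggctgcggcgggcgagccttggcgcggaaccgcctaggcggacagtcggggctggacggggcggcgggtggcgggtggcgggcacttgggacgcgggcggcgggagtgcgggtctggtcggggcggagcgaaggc
Prc1: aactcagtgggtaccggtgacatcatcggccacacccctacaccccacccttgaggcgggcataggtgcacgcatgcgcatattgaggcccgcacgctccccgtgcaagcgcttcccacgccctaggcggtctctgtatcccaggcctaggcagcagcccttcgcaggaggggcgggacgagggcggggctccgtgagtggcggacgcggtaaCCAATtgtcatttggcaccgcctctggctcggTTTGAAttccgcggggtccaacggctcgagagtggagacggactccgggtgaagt
Cdk1: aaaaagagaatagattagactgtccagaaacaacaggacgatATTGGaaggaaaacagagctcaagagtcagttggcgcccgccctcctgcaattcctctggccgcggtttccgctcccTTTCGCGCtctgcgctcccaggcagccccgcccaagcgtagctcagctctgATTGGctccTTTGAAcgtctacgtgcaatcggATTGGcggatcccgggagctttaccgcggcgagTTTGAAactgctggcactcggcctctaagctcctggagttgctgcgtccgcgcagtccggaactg
Mcm6 holds 3 E2F matches, a pair of which overlap on opposite strands, and Mcm3 holds 2, and neither window holds a cell-cycle homology region. In Mki67 the reverse was found, with 2 cell-cycle homology regions, 3 CCAAT boxes and no E2F match, and Prc1 had 1 cell-cycle homology region and 1 CCAAT box. Cdk1, whose product drives entry into mitosis, held both kinds, 1 E2F match and 2 cell-cycle homology regions.

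**Figure D1:**
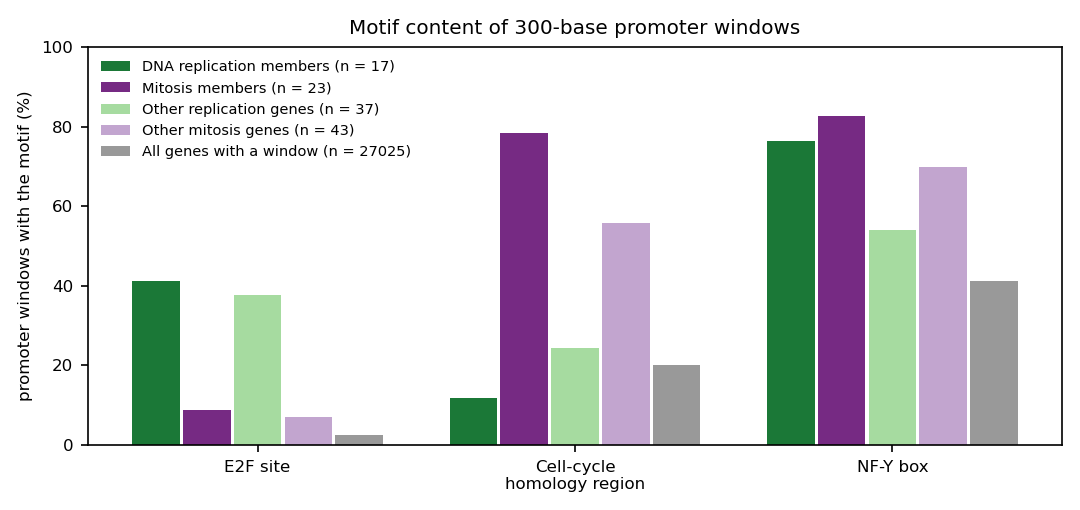
Bars give the percent of promoter windows that hold each motif, for the replication and mitosis members, for other replication and mitosis genes and for all genes with a window. E2F matches were found in 41.2% of replication and 8.7% of mitosis members, the cell-cycle homology region in 11.8% and 78.3%.

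Other genes of the same processes, listed apart from the members, had a like distribution. The E2F spellings were found in 14 of 37 other replication genes with a window (37.8%) and in 3 of 43 other mitosis genes (6.98%). The cell-cycle homology region was found in 9 of the 37 (24.3%) and 24 of the 43 (55.8%). In the 150 bases nearest the gene start the E2F shares of these lists were 35.1% (13 of 37) and 6.98% (3 of 43). Unlike that of the replication members, the share of the other replication genes thus stayed near its value in the longer window. Those of the cell-cycle homology region were 10.8% and 46.5%.

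The targeted gene and its downstream genes run against the labels. Vhl read 8.25, 8.32, 8.46 and 8.33 on the arrays labelled mutant, in the order of their replicate numbers, and 8.01, 7.99, 7.96 and 8.22 on the arrays labelled control. Every labelled mutant array was thus above every labelled control array, with a log2 difference of 0.29 (limma adjusted p = 0.0387, but adjusted p = 0.0558 with the replicate number as a block; two-sided p = 0.0286 in an exact permutation test, which is the lowest value these group sizes can give). The call for Vhl was also lost without control array 1, 2 or 3 or mutant array 2, 3 or 4 (adjusted p = 0.0785 to 0.114). The HIF target genes Egln3 and Car9 were 7.81-fold and 7.35-fold lower and Vegfa 1.79-fold lower in the arrays labelled mutant (limma adjusted p = 2.15e-06, 0.000523 and 1.3e-05). The directions given here are therefore those between the arrays labelled mutant and the arrays labelled control, and are not directions of Vhl loss. A difference is the mean log2 value of the arrays labelled mutant minus that of the arrays labelled control, and a gene is said to have fallen or risen when limma's adjusted p over all 19936 genes was under 0.05.

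Of the 53 members, 28 fell and 0 rose in the arrays labelled mutant, while 4.64% of all genes fell and 2.59% rose. At an unadjusted limma p under 0.05 the counts were 40 lower and 1 higher, Tk1. The share of all genes was not counted at this unadjusted threshold, here or for the lists below, so these counts have no background. The 25 members outside the 28 did not pass after adjustment. Over all 53 the differences ran from -0.99 to 0.13 with a median of -0.36, compared with a median of 0.03 for all genes. In 49 members the difference was below 0, which held for 8349 of all 19936 genes. Tk1, Cdc45, Ect2 and Ccne1 were the 4 members above 0. In 29 members all 4 labelled mutant arrays lay below all 4 labelled control arrays, which held for 8.20% of all genes. Of the members that fell, 12 were at least 1.5-fold lower. Among all 19936 genes, called or not, 267 were lower by that much. The mean over the 53 members was 7.32 ± 0.109 in the arrays labelled mutant and 7.70 ± 0.0683 in the arrays labelled control (n = 4 each, with SD), with ranges of 7.21 to 7.47 and 7.61 to 7.77 that did not overlap.

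With the replicate number as a block, 26 members fell, beside 5.27% of all genes, of which 24 had also fallen without it. Mcm5, Mcm6, Plk1 and Nusap1 lost the call (adjusted p = 0.0517, 0.0617, 0.0652 and 0.0509) and Ncapd2 and Ttk gained it (0.0466 and 0.0479). The count of 28 depended on single arrays. Leaving out control array 3 gave 13, mutant array 2 gave 15, control array 2 gave 16, and control array 1 or mutant array 3 gave 18. In the same order, 620, 654, 619, 719 and 805 of all 19936 genes fell in these runs, against 925 with all arrays. Leaving out any one of the other arrays gave 22 to 29 members, beside 756 to 908 of all genes. The call was kept without each single array by 13 members, among them Mcm3, Mcm7, Mki67, Bub1, Kif11, Prc1, Anln, Mad2l1 and Ccna2. No member that fell changed sign in any alternative run.

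**Figure D2:**
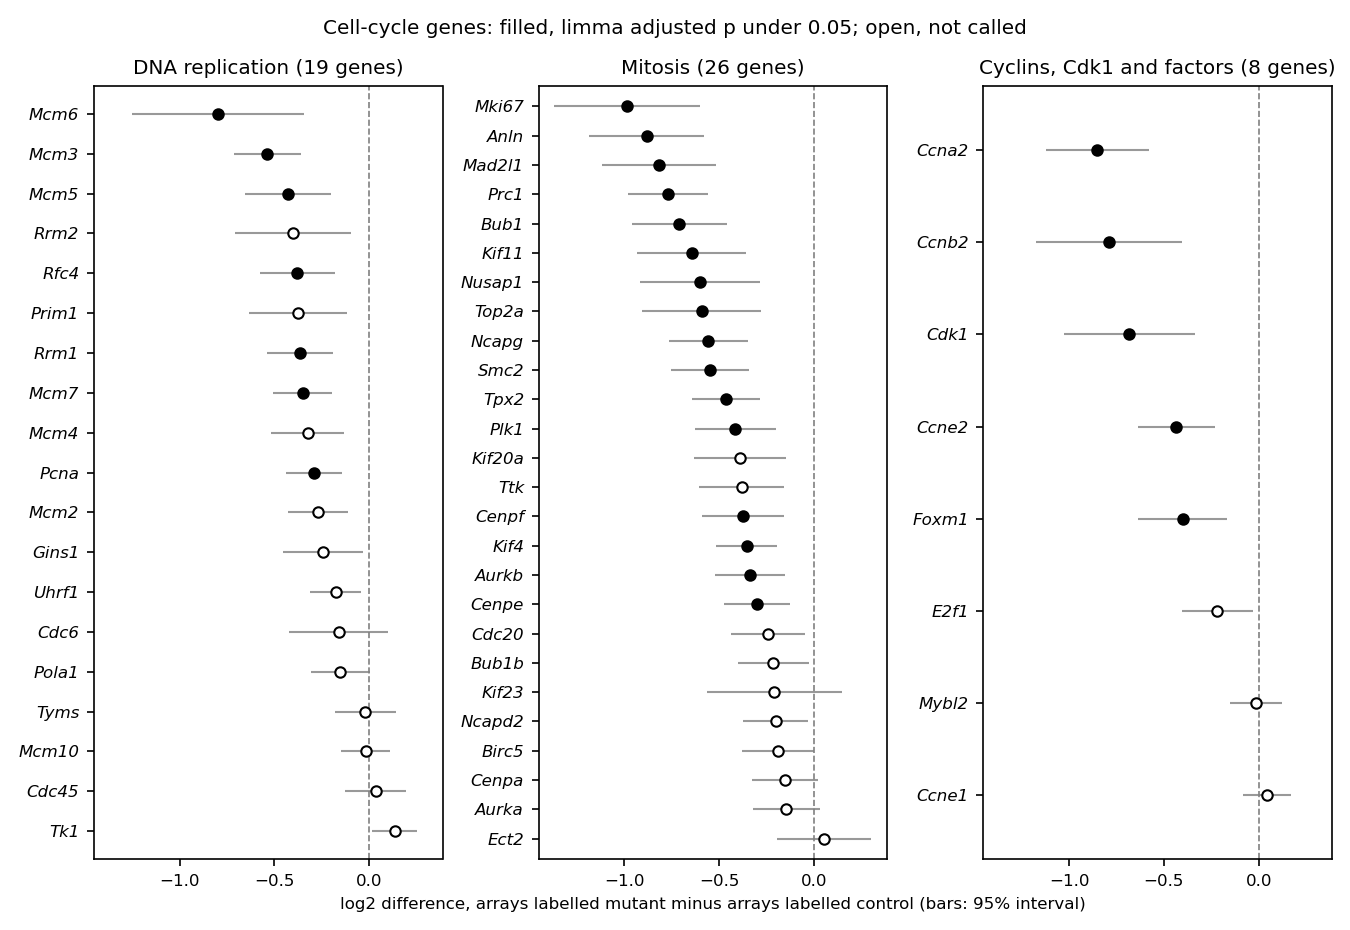
Points give the log2 difference of each gene, arrays labelled mutant minus arrays labelled control, with its 95% interval, in 3 panels for replication, mitosis and the cyclins, Cdk1 and factors. Filled points passed limma's test (28 of 53), and all of these lie left of 0.

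The cyclins that act with Cdk1 fell most among the regulators. Of the 8 cyclins, Cdk1 and transcription factors, 5 fell, with a median difference of -0.42. Ccna2, the A-type cyclin of S phase and G2, read 7.86, 7.32, 7.39 and 7.64 on the arrays labelled mutant, against 8.52, 8.29, 8.55 and 8.25 on the arrays labelled control. No labelled mutant array reached the lowest labelled control array, and Ccna2 was 1.80-fold lower (log2 difference -0.85 ± 0.122 SE, limma adjusted p = 0.00305). Ccnb2, a B-type cyclin of mitotic entry, read 8.18, 7.57, 7.37 and 7.95 on the arrays labelled mutant and 8.75, 8.51, 8.71 and 8.27 on the arrays labelled control. Mutant array 1, the highest of its group, stayed just below control array 4, the lowest of the other, and the difference was -0.79 ± 0.172 SE (adjusted p = 0.0219). Cdk1 read 8.16, 7.79, 7.44 and 7.68 on the arrays labelled mutant and 8.64, 8.62, 8.40 and 8.14 on the arrays labelled control. Here the groups overlapped, since mutant array 1 was just above control array 4, and the difference was -0.68 ± 0.154 SE (adjusted p = 0.0258).

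The E-type cyclins, which act at the entry into S phase, parted. Ccne2 read 5.85, 6.06, 6.24 and 6.26 on the arrays labelled mutant and 6.48, 6.47, 6.56 and 6.63 on the arrays labelled control, without overlap (difference -0.44 ± 0.0905 SE, limma adjusted p = 0.018). Its paralogue Ccne1 read 7.33, 7.30, 7.19 and 7.2 on the arrays labelled mutant and 7.23, 7.13, 7.22 and 7.27 on the arrays labelled control. The Ccne1 groups lay across each other, with a difference of 0.04 and a 95% interval of -0.08 to 0.17 (adjusted p = 0.7). The difference between these paralogues was not tested. Among the factors, Foxm1 fell (difference -0.40, adjusted p = 0.0496) although its groups overlapped, E2f1 read 7.58, 7.24, 7.29 and 7.39 on the arrays labelled mutant and 7.46, 7.55, 7.68 and 7.68 on the arrays labelled control, and Mybl2 averaged 7.86 ± 0.083 on the arrays labelled mutant and 7.87 ± 0.0759 on the arrays labelled control (n = 4 each, SD). E2f1 overlapped through mutant array 1 and did not pass (difference -0.22, adjusted p = 0.164), nor did Mybl2 (difference -0.01, 95% interval -0.15 to 0.12). Ccna2 kept its call without each single array. The calls of Ccnb2, Cdk1, Ccne2 and Foxm1 did not hold throughout: all 4 were lost without control array 3 or mutant array 2, Ccnb2, Cdk1 and Foxm1 also without control array 1 or 2, and Cdk1 and Foxm1 also without mutant array 3 or 4 (adjusted p up to 0.0712 for Ccnb2, 0.0805 for Cdk1, 0.0562 for Ccne2 and 0.137 for Foxm1).

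Among the 19 replication members 7 fell, with a median difference of -0.29, and 17 had a difference below 0. The Mcm helicase genes were the largest group within them. Mcm6 read 7.32, 6.79, 6.57 and 7.48 on the arrays labelled mutant and 7.50, 7.75, 8.10 and 8.01 on the arrays labelled control. Its labelled mutant arrays were widely spread and the highest of them, array 4, was just under control array 1, so that the 1.74-fold difference carried a large error (-0.80 ± 0.203 SE, limma adjusted p = 0.043, but 0.0617 with the replicate block). Mcm3 read 6.95, 6.84, 6.76 and 6.70 on the arrays labelled mutant and 7.32, 7.54, 7.29 and 7.25 on the arrays labelled control. Its groups stood well apart, and Mcm3 was 1.45-fold lower (-0.54 ± 0.0791 SE, adjusted p = 0.00345), a call kept in every alternative run. Mcm5 read 8.55, 8.18, 8.08 and 8.04 on the arrays labelled mutant and 8.57, 8.68, 8.68 and 8.62 on the arrays labelled control, with mutant array 1 near the labelled control arrays and the others lower (-0.43 ± 0.102 SE, adjusted p = 0.0328, but 0.0517 with the block). Mcm7 fell by 0.35 on the log2 scale (adjusted p = 0.0144). Mcm4 and Mcm2 narrowly missed the threshold, with differences of -0.33 and -0.27 (adjusted p = 0.0528 and 0.0512).

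Genes that load or switch on the helicase did not pass. Cdc6, which loads the Mcm ring onto origins, had a difference of -0.16 (95% interval -0.42 to 0.10), and Gins1, a subunit of the GINS complex, one of -0.24. For Mcm10 and Cdc45, which act with the helicase as it starts, the differences were -0.02 (95% interval -0.15 to 0.11) and 0.03 (95% interval -0.13 to 0.20). Of the 10 licensing and helicase members 4 fell, all of them subunits of the Mcm2 to Mcm7 ring.

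At the replication fork, Rfc4, a subunit of the complex that loads the Pcna clamp, read 8.17, 8.04, 8.23 and 8.03 on the arrays labelled mutant and 8.33, 8.39, 8.71 and 8.55 on the arrays labelled control. The groups did not overlap, and the difference was -0.38 ± 0.089 SE (limma adjusted p = 0.0305). Pcna itself averaged 10.28 ± 0.114 on the arrays labelled mutant and 10.58 ± 0.0591 on the arrays labelled control (SD, n = 4 each), a fall of 0.29 on the log2 scale (adjusted p = 0.0258), and its second probe set gave -0.29 too. Prim1, the catalytic primase subunit, read 7.83, 7.32, 7.81 and 7.82 on the arrays labelled mutant and 7.92, 8.03, 8.17 and 8.17 on the arrays labelled control. All its labelled mutant arrays were below the labelled control arrays and array 2 was the lowest of them by far. Prim1 did not pass with all arrays (-0.38 ± 0.116 SE, adjusted p = 0.0883), nor without mutant array 2 (adjusted p = 0.103). Pola1, the catalytic subunit of polymerase alpha, had a difference of -0.15, and Uhrf1, which guides DNA methylation at the fork, one of -0.18, neither of which passed.

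The genes of nucleotide supply split. Rrm1, the large subunit of ribonucleotide reductase, averaged 8.82 ± 0.103 on the arrays labelled mutant and 9.19 ± 0.131 on the arrays labelled control (SD, n = 4 each) and fell by 0.36 on the log2 scale (limma adjusted p = 0.0205). Rrm2, its small subunit that is made in S phase, read 7.64, 7.49, 7.37 and 7.87 on the arrays labelled mutant and 8, 8.31, 7.99 and 7.69 on the arrays labelled control. Mutant array 4 lay above control array 4, so the groups overlapped and the difference of -0.40 ± 0.137 SE did not pass (adjusted p = 0.118). Tyms, thymidylate synthase, had a difference of -0.02 (95% interval -0.18 to 0.14). Tk1, thymidine kinase, was the member with the highest difference, 0.13 (95% interval 0.02 to 0.25, adjusted p = 0.18), and its groups did not overlap. A second Tk1 probe set gave -0.06, so the probe sets of this gene disagree in sign.

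The count of 7 replication members was 5 with the replicate block, 4 without control array 2 or mutant array 3, 3 without mutant array 2 and 2 without control array 3. Mcm3 and Mcm7 kept the call without each single array. Mcm6 lost it without control array 2, 3 or 4 or mutant array 2 or 3 (adjusted p up to 0.124), and Mcm5 without any single array but mutant array 1 (up to 0.0935). The call of Rfc4 was lost without control array 3 or 4 or mutant array 2 or 4 (up to 0.0918), that of Rrm1 without control array 3 or mutant array 2 (up to 0.0565), and that of Pcna without control array 2, 3 or 4 or mutant array 1 or 3 (up to 0.0707).

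**Figure D3:**
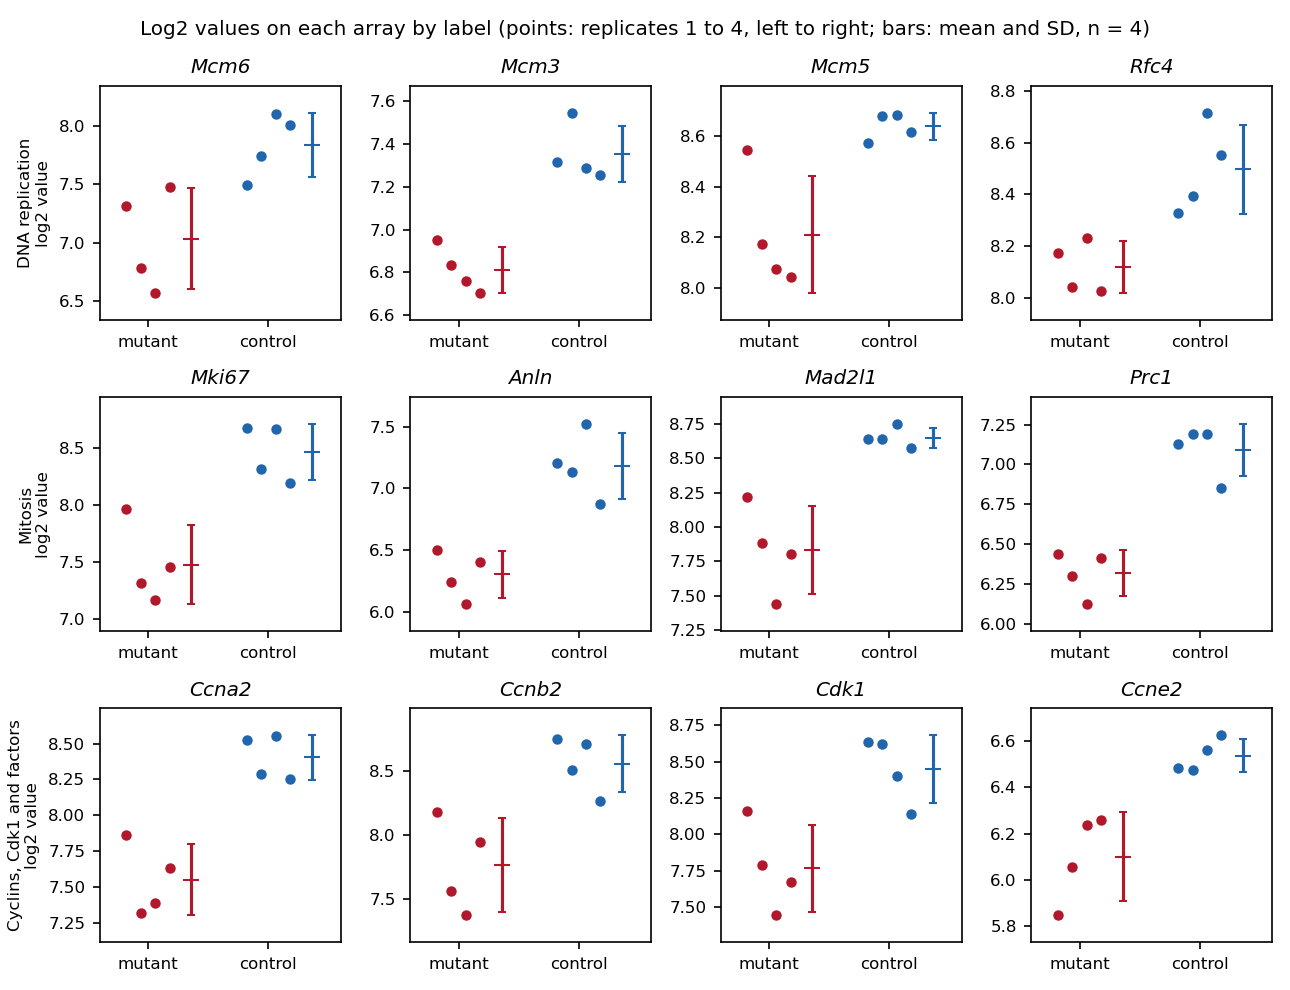
Points give the log2 values on each of the 4 arrays labelled mutant (left) and the 4 arrays labelled control (right), with the mean and SD, for 4 members of each class that fell. Cdk1 is the one gene of these 12 whose groups overlap, with mutant array 1 at 8.16 and control array 4 at 8.14.

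Of the 26 mitosis members 16 fell, with a median difference of -0.39, and in 25 the difference was below 0. Chromosome structure gave the largest fall of all. Mki67, whose protein coats mitotic chromosomes and marks cycling cells, read 7.97, 7.32, 7.16 and 7.46 on the arrays labelled mutant and 8.68, 8.32, 8.67 and 8.19 on the arrays labelled control. The groups did not overlap, and Mki67 was 1.98-fold lower (-0.99 ± 0.172 SE, limma adjusted p = 0.00744). Top2a, the topoisomerase that untangles sister chromatids, fell by 0.59 on the log2 scale (adjusted p = 0.0319). A second Top2a probe set, at a level of only 3.80 on the arrays labelled mutant and 3.82 on the arrays labelled control, gave -0.02. The condensin genes Ncapg and Smc2 fell by 0.56 and 0.55 (adjusted p = 0.00622 and 0.00653), while the condensin gene Ncapd2 did not pass without the block (difference -0.20, adjusted p = 0.164).

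Genes of the spindle and of cytokinesis followed. Anln, the anillin of the contractile ring, read 6.50, 6.24, 6.06 and 6.40 on the arrays labelled mutant and 7.21, 7.14, 7.52 and 6.87 on the arrays labelled control, a gap between the groups and a 1.84-fold difference (-0.88 ± 0.136 SE, limma adjusted p = 0.00421). Prc1, which bundles the microtubules of the central spindle, read 6.44, 6.30, 6.12 and 6.41 on the arrays labelled mutant and 7.13, 7.19, 7.19 and 6.85 on the arrays labelled control. It had the lowest adjusted p of the 53 members (0.00147; -0.77 ± 0.0952 SE, 1.71-fold lower). Kif11, the motor that pushes spindle poles apart, fell by 0.64 (adjusted p = 0.0146), Nusap1, a microtubule bundler, by 0.60 (0.0315, but 0.0509 with the block), Tpx2, which activates Aurka on the spindle, by 0.46 (0.00748) and the chromosome motor Kif4 by 0.36 (0.0164). Kif20a, a motor of the central spindle, read 7.03, 6.62, 6.52 and 6.77 on the arrays labelled mutant and 7.14, 7.01, 7.29 and 7.05 on the arrays labelled control. Mutant array 1 stood above control array 2, and the difference of -0.39 ± 0.109 SE did not pass (adjusted p = 0.0624). Kif23, the partner motor of the central spindle, and Ect2, which activates the contractile ring, had differences of -0.21 (95% interval -0.57 to 0.15) and 0.05 (95% interval -0.19 to 0.30) and did not pass either.

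The spindle checkpoint holds anaphase back until every chromosome is attached. Mad2l1, which encodes its inhibitor Mad2, read 8.22, 7.88, 7.44 and 7.80 on the arrays labelled mutant and 8.64, 8.64, 8.75 and 8.57 on the arrays labelled control. The labelled control arrays were close together and all above the labelled mutant arrays, which spread more widely, and Mad2l1 was 1.76-fold lower (-0.82 ± 0.135 SE, limma adjusted p = 0.00586). Bub1, a checkpoint kinase, fell by 0.71 (adjusted p = 0.00474). Ttk, the kinase at the head of the checkpoint, read 5.87, 5.87, 5.46 and 5.73 on the arrays labelled mutant and 6.29, 6.02, 6.14 and 6.00 on the arrays labelled control. Its groups did not overlap but it missed the threshold without the block (-0.38 ± 0.101 SE, adjusted p = 0.0508, and 0.0479 with it). Bub1b and Cdc20, the checkpoint protein BubR1 and the activator it restrains, had differences of -0.21 and -0.24 and did not pass.

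Among the mitotic kinases and the passenger complex, Plk1 and Aurkb fell by 0.41 and 0.34 on the log2 scale (limma adjusted p = 0.0279, but 0.0652 with the block, and 0.0367). Aurka and Birc5, the spindle pole kinase and the survivin subunit of the passenger complex, had differences of -0.15 and -0.19, which did not pass. At the kinetochore, Cenpf and Cenpe fell by 0.37 and 0.30 (adjusted p = 0.0465 and 0.0493), and Cenpa, the centromeric histone, had a difference of -0.15 (adjusted p = 0.298).

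The count of mitosis members that fell was 16 with the block too, and 10 without control array 1, 2 or 3. Mki67, Bub1, Tpx2, Prc1, Anln, Ncapg, Smc2 and Mad2l1 kept the call in every alternative run, and Kif11 and Kif4 without each single array. The other 6 depended on more than 1 array. Top2a lost the call without any single labelled control array or mutant array 2 (adjusted p up to 0.0948), Aurkb without any single labelled control array or mutant array 3 or 4 (up to 0.0975), and Plk1 and Nusap1 without control array 1, 2 or 3 or mutant array 2 or 3 (up to 0.0824 and 0.0961). Cenpf lost it without control array 1, 2 or 3 or mutant array 2, 3 or 4 (up to 0.131), and Cenpe without any single array but control array 4 (up to 0.136).

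Set side by side, replication and mitosis genes were both lower in the arrays labelled mutant, and the gap between the classes overlapped between the groups. The share of members that fell was 36.8% in replication and 61.5% in mitosis, against the 4.64% of all genes. The classes differed in signal level. Of members with a mean under 7, 0 of 2 fell in replication and 10 of 13 in mitosis. Between 7 and 8 the counts were 2 of 9 and 4 of 8. At 8 or above they were 5 of 8 and 2 of 5, with medians of -0.32 and -0.20. In the upper 60% of probe sets by mean, 9 of 17 replication and 6 of 12 mitosis members fell, beside 1020 of 13491 genes. The part of level in this contrast was not tested. Falls of at least 1.5-fold were found in 1 replication member, Mcm6, and 8 mitosis members, beside 267 of all 19936 genes, called or not. Averaged over its 19 genes, replication read 7.89, 7.75, 7.77 and 7.82 on the arrays labelled mutant and 8.01, 8.11, 8.15 and 8.04 on the arrays labelled control. Averaged over its 26 genes, mitosis read 7.13, 6.91, 6.79 and 6.97 on the arrays labelled mutant and 7.48, 7.33, 7.47 and 7.28 on the arrays labelled control. Within each class the groups did not overlap. The replication mean minus the mitosis mean was 0.76, 0.84, 0.98 and 0.85 on the arrays labelled mutant and 0.53, 0.77, 0.68 and 0.76 on the arrays labelled control. These gaps averaged 0.86 ± 0.0906 in the arrays labelled mutant and 0.69 ± 0.113 in the arrays labelled control (n = 4 each, with SD), and the groups overlapped because mutant array 1 lay below control arrays 2 and 4. Taken by replicate number, the gap was larger on the labelled mutant array for 4 of 4 numbers, by 0.23, 0.06, 0.30 and 0.09. No label states that same-numbered arrays belong together. Set against control array 2 or 4 instead, mutant array 1 had the smaller gap. No p is given for a mean over chosen members.

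**Figure D4:**
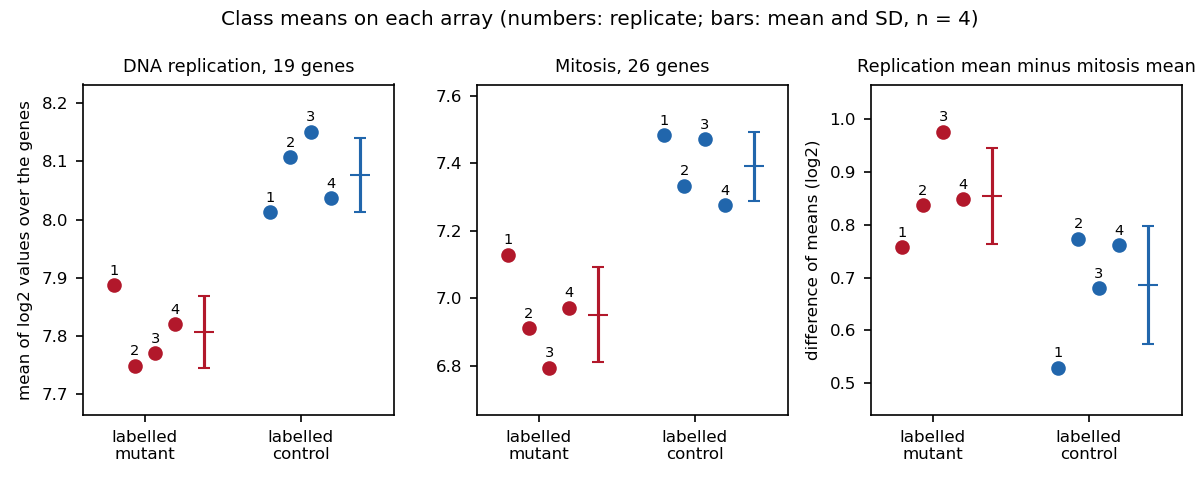
Points give, for each array by replicate number, the mean log2 value over the replication and mitosis genes and the gap between those means, with group mean and SD. Both class means separate the arrays labelled mutant (left) from the arrays labelled control (right). The gap overlaps between the groups, with mutant array 1 at 0.76 and control array 2 at 0.77. For each of the 4 replicate numbers the gap is larger on the labelled mutant array, but no label pairs the arrays by number.

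Within a group, the members' highest and lowest values were not spread evenly over the arrays. Mutant array 1 had the highest value of its group for 38 of the 53 members (71.7%, against 29.0% of all genes), among them 22 of the 26 mitosis members. Mutant array 3 had the lowest for 25 (47.2%, against 28.2% of all genes), among them 16 mitosis members. Among the arrays labelled control, array 4 had the lowest value for 27 members (50.9%, against 26.8% of all genes) and array 3 the highest for 21 (39.6%, against 22.9%). The classes parted on control array 1, which was highest for 14 of the 26 mitosis members and lowest for 1. Of the 19 replication members it was highest for 1 and lowest for 8. Of all genes, control array 1 was highest for 18.6% and lowest for 24.4%. Falls were found at every level. Of 16 members with a mean under 7, 11 fell, of 22 between 7 and 8, 8 fell, and of 15 at 8 or above, 9 fell. Kif4 and Ttk had both group means under the lowest lower quartile of the arrays (6.21); whether they were above background could not be read from summarised values.

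The other genes of the cycle, outside the 53, had smaller median differences. Of 48 other mitosis genes measured 12 fell, with a median of -0.25, and of 46 other replication genes 7 fell, with a median of -0.20. No gene of either list rose in limma's test, where at an unadjusted p under 0.05 the counts higher were 0 in mitosis and 1 in replication, Gmnn, chosen for naming after its value was seen. The largest falls in mitosis were those of Cenpk, a centromere protein gene (-0.61, limma adjusted p = 0.0319), Sgo2a, which protects centromeric cohesion in meiosis (-0.59, 0.00305), and the condensin gene Ncaph (-0.51, 0.00343). In replication they were those of Dtl, a receptor of the ligase that clears licensing factors in S phase (-0.76, 0.00556), Pole, the leading-strand polymerase (-0.59, 0.00344), and the chromatin remodeller Hells (-0.42, 0.0367, but 0.0559 with the block). Cenpk, whose groups overlapped, lost its call without control array 1, 2 or 3 or mutant array 2, 3 or 4 (adjusted p = 0.07 to 0.0945). Hells lost it without any single array but control array 1 or mutant array 1 (0.067 to 0.109). The other mitosis count was 22 without mutant array 1. For other replication genes 4 fell when control array 1 was left out, 3 when mutant array 4 was, and 2 when control array 2 or 3 or mutant array 2 was.

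Upstream of S phase, 2 of 28 genes of G1 control fell and 0 rose in limma's test (9 and 1 at an unadjusted p under 0.05), with a median of -0.11. This is 7.14% of the list, near the 4.64% of all genes that fell. Myc, a factor that drives growth and entry into the cycle, read 8.64, 8.18, 8.48 and 8.74 on the arrays labelled mutant and 10.43, 10.6, 10.36 and 11.03 on the arrays labelled control. It was 4.27-fold lower (-2.10 ± 0.156 SE, limma adjusted p = 7.05e-05), a larger difference than that of any of the 53 members. E2f3, an activating E2F, read 7.11, 6.98, 7.09 and 7.10 on the arrays labelled mutant and 7.37, 7.58, 7.62 and 7.37 on the arrays labelled control, also without overlap (-0.42 ± 0.0721 SE, adjusted p = 0.0072). The inhibitor genes Cdkn1b and Cdkn1c, picked out after the fit, had differences of -0.09 and 0.16 and did not pass. Without mutant array 1 the count of G1 control genes that fell was 4. Myc and E2f3 kept the call without each single array.

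**Figure D5:**
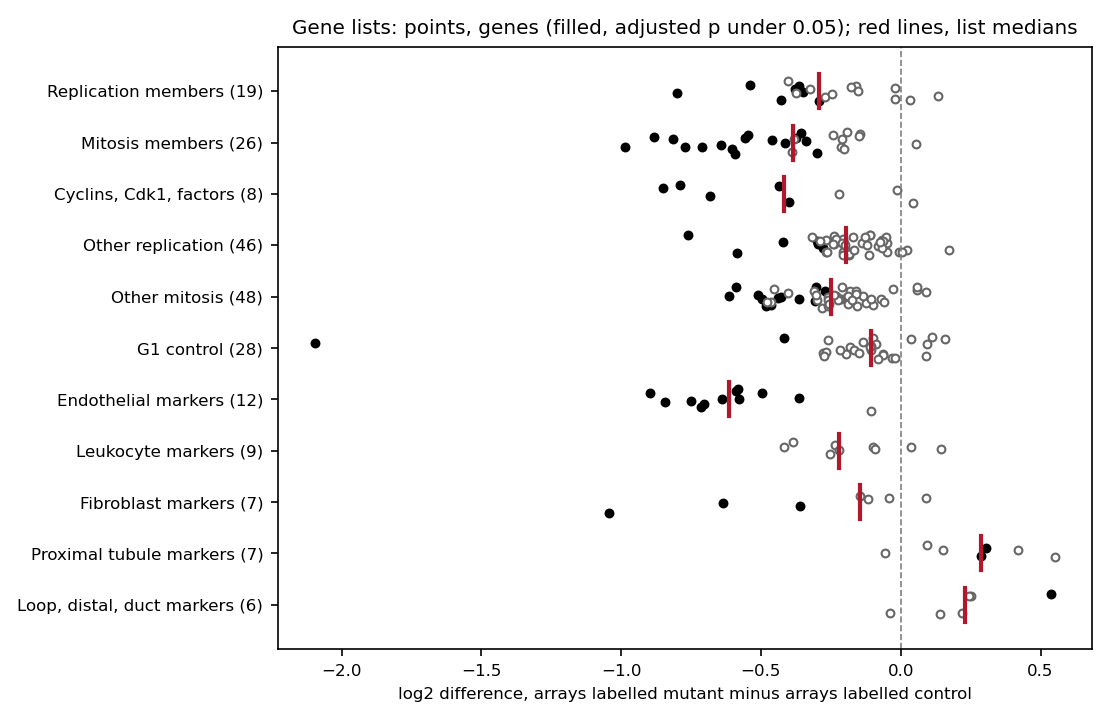
Points give the log2 difference of each gene, arrays labelled mutant minus arrays labelled control, by gene list, filled where limma's adjusted p was under 0.05, and red lines give list medians. The medians of the 3 member classes lie at -0.29, -0.39 and -0.42, those of other replication, other mitosis and G1 control genes at -0.20, -0.25 and -0.11, and that of endothelial markers at -0.61.

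Markers of the cell types in a kidney moved as well, and any cycling cell type could carry the members. For the counts below, 4.64% of all genes fell and 2.59% rose. With the replicate block 5.27% fell, and 606 of 19936 rose. Markers of proximal tubule averaged 12.46 to 12.76 on the arrays labelled mutant and 12.15 to 12.5 on the arrays labelled control, a high level that fits the labelled tissue, and 2 of 7 rose. Those of the loop, distal tubule and duct averaged 12.2 to 12.39 on the arrays labelled mutant and 11.97 to 12.15 on the arrays labelled control, and 1 of 6 rose, or 3 with the replicate block. Endothelial markers fell in 11 of 12, with list means of 9.89 to 10 on the arrays labelled mutant and 10.5 to 10.7 on the arrays labelled control, and none of the 12 was near the floor. Of 9 leukocyte markers 0 fell in limma's test (2 at an unadjusted p under 0.05), while with the replicate block 2 fell, Cd68 and Itgam (adjusted p = 0.0334 and 0.0148), with list means of 7.34 to 7.86 on the arrays labelled mutant and 7.61 to 7.86 on the arrays labelled control. Ptprc, the pan-leukocyte gene, read 8.26, 8.27, 7.39 and 7.31 on the arrays labelled mutant and 8.14, 8.2, 8.09 and 7.82 on the arrays labelled control. Fibroblast markers fell in 3 of 7 (list means 9.16 to 9.24 on the arrays labelled mutant and 9.39 to 9.60 on the arrays labelled control), and of 3 erythroid markers measured 1 fell, Alas2, the first enzyme of haem synthesis in red cells (-2.24). Podocyte markers were mixed, since of 3 measured Podxl fell (-0.29), while Nphs1 and Wt1 had differences of 0.17 and 0.10 and did not pass. In Nphs1 and Wt1 every labelled mutant array lay above every labelled control array, which held for 1310 of all 19936 genes. The part of any of these cell types in the differences of the 53 members was not tested. Because mutant arrays 1 and 2 stood apart from 3 and 4 in Ptprc, the members were also tested without either pair. Then 21 members fell without arrays 1 and 2 and 14 without arrays 3 and 4, beside 646 and 885 of all genes.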

How the data were processed

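Total RNA of 8 whole kidneys, 1 per mouse, was hybridised to Affymetrix arrays. The values are the authors' deposited log2 summaries of 35556 probe sets. They run from 1.92 to 14.66 with array medians of 7.547 to 7.581. Per the submitters' processing notes limma was used, in a version not given there. No source used here gives the background correction, the summarization or the normalization between arrays. Probe sets naming exactly 1 gene (21789) gave 19936 genes, of which each kept the probe set with the highest mean, and symbols were updated through the RefSeq gene table of GRCm38.p6.

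A linear model with the labelled group as its factor was fitted to all 8 arrays in limma 3.58.1 (R 4.3.3), with moderated two-sided tests. P-values were adjusted over the 19936 genes after Benjamini and Hochberg, and a gene was called at 0.05. The members, gene lists and motifs were chosen with earlier results of these data known. Values on every array are given for the 4 members of each class with the largest differences among those called and for the 2 with the largest among the rest, and the 3 largest called genes are named from each other list. Lists are described by counts and medians, with no test of a list. On simulated data with 200 changed genes among 19936 in this comparison, limma recovered 75% of differences of 0.5 and 99% of differences of 1 on the log2 scale, and 7 of its 181 calls were false. The simulated noise was independent between genes and arrays. In the data 925 genes fell and 517 rose, and members shared high and low arrays, so these rates need not hold there.

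Both groups carry the replicate numbers 1 to 4. Deviations from the group means correlated at 0.138, 0.153, 0.295 and 0.175 between same-numbered arrays, and the arrays were treated as paired by number in the fit with a block. No label states this pairing, which rests on the data. The median standard error of a difference was 0.0718, and the number of arrays limits the precision. The fit was repeated without each array in turn, with the replicate block, with array weights or another variance model, after quantile normalization or median centring, on the upper part of the probe sets by mean, with probe sets of a gene averaged, at other thresholds, with a shorter promoter window and, chosen after seeing the data, leaving out mutant arrays 1 and 2 or 3 and 4.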

Additional observations from a re-analysis of the deposited data

Results flagged for a closer look

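An array was taken to stand apart within its group where its gap to the nearest other array, over the range of the 4 arrays, was above Dixon's 95% critical value. Of 130 groups of 4 arrays, 7 did so, and chance alone gives about 1 in 20. Mutant array 2 was low for Prim1 (7.32, others 7.81 to 7.83), for Rrm1 (8.67, others 8.87 to 8.89) and for E2f3 (6.98, others 7.09 to 7.11). Mutant array 3 was low for Mybl2 (7.73, others 7.89 to 7.91), and mutant array 4 was high for Kif23 (8.25, others 7.45 to 7.56). Among the arrays labelled control, array 3 was low for Aurkb (8.31, others 8.43) and array 4 was low for Foxm1 (7.47, others 7.75 to 7.79).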

How the results depend on the processing

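The direction of the 28 members that fell was the same in every alternative run that held them. The call was kept in each such run by 10 of them (Mcm3, Mki67, Bub1, Tpx2, Prc1, Anln, Ncapg, Smc2, Mad2l1 and Ccna2). Of these, Bub1, Tpx2, Prc1, Anln and Ncapg were not in the run on the upper 60% of probe sets by mean. Without 1 array at a time the count of members that fell was 13 to 29, of replication members 2 to 7, of mitosis members 10 to 17, of other mitosis genes 8 to 22, of other replication genes 2 to 8 and of G1 control genes 2 to 4. Across all genes 263 to 487 rose, against 517 with all arrays. Without mutant arrays 3 and 4 these falls numbered 14 members, 3 in replication and 9 in mitosis, and the median of the other replication genes was -0.14. Without mutant arrays 1 and 2 they numbered 3 in replication and 4 in other replication, the G1 control median was -0.071, and 316 genes rose. At an adjusted p under 0.01, 10 members fell, 1 in replication and 8 in mitosis, with 6 other mitosis and 2 other replication genes, and 454 genes fell and 148 rose. At 0.10, 33 members, 23 other mitosis, 16 other replication and 6 G1 control genes fell. Of all 19936 genes, 1312 fell and 901 rose at this threshold. In the upper 60% of probe sets by mean, which holds 36 of the members, 9 of 17 replication and 6 of 12 mitosis members fell. Of the other lists, 7 of 19 mitosis, 6 of 30 replication and 5 of 27 G1 control genes fell. Of all genes in this run 1020 of 13491 fell. Array weights gave 25 other mitosis and 4 G1 control genes, beside 1027 of all genes. With trend and robust in eBayes there were 6 G1 control genes, beside 1051 of all genes. Quantile normalization moved the G1 control median to -0.080. In the shorter promoter window the E2F share of the replication members was 17.6% and that of the mitosis members 8.7%.

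The replicate block left the Vhl difference at 0.29 with adjusted p = 0.0558, changed the calls named beside the results for Mcm5, Mcm6, Plk1, Nusap1, Ncapd2, Ttk, Hells, Cd68 and Itgam, and changed no other call of a named gene. The Vhl difference was 0.35 without mutant arrays 1 and 2, 0.23 without 3 and 4, and 0.25 to 0.35 without 1 array at a time. Members near 0 that were not called changed sign. Without mutant arrays 1 and 2 the differences were -0.0896 for Cdc45, 0.0809 for Tyms, 0.0105 for Kif23, -0.0935 for Ect2 and -0.0174 for Ccne1, and without 3 and 4 that of Mybl2 was 0.0312. For Tyms, array weights gave 0.0006 and quantile normalization 0.0118. Without 1 array at a time the ranges were -0.0451 to 0.0107 for Mcm10, -0.0206 to 0.0804 for Cdc45, -0.0845 to 0.0227 for Tyms, -0.0307 to 0.13 for Ect2 and -0.048 to 0.0274 for Mybl2. The cause of these changes was not tested.

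With 4 arrays a group and no background reading, a member with a small difference cannot be told from one with none.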
